A study of Danio rerio with 6 samples.

Results

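Heart muscle genes were followed in zebrafish larvae treated with 4-octyl itaconate. The set was chosen by gene name, with earlier results of these data known. It held 10 names, myl7, vmhc, myh6, cmlc1, tnnt2a, nppa, nppb, nkx2.5, gata4 and hand2, of which 9 stood on 1 row each among the 24470 gene IDs of the table. No row carried the name vmhc, but the row named myh7 carried the Entrez number 30616, for which RefSeq lists vmhc and smyhc3 as synonyms. That row is described beside the other genes as myh7 (vmhc) and is not counted among the 9. The treated group held 3 libraries of larvae exposed to 2.5 µM 4-octyl itaconate, a cell-permeable itaconate ester, for 48 h from 3 days post fertilization. The control group held 3 libraries, and larvae of both groups were of the line Tg(Brn3C:mGFP), a reporter line for hair cells, and were collected at 5 days post fertilization. The series addresses the Irg1l and itaconate axis in neuromasts, so the heart was not the tissue under study. What the controls received as vehicle, and how many larvae or clutches went into a library, is not stated in the labels. The p-values therefore speak of the spread among these 6 samples, and part of that spread may be technical.

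The heart of a zebrafish larva has 1 atrium and 1 ventricle and beats within the first days of life. Its muscle cells contract through myosin heavy chains with their light chains, sliding along actin filaments that troponin and tropomyosin open when calcium is released. The cells are specified by a group of transcription factors that includes Nkx2.5, Gata4 and Hand2, and they secrete natriuretic peptides, hormones that are made in greater amounts when the heart wall is stretched. The labels give larvae as the tissue and name no dissection, so that RNA of many tissues was measured together, and a change in the number of heart cells and a change in RNA per heart cell cannot be told apart.

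From the deposited normalized counts, 14763897 to 23507208 reads were recovered per library. Across the 20352 tested genes, Pearson correlations of log2 values were 0.928 to 0.972 within the treated group, 0.971 to 0.974 within the control group and 0.672 to 0.731 across groups. Treated replicate 1 stood apart from the other libraries on the second principal component, which held 6.83% of the variance. Transcripts of the giant sarcomere protein titin also set it apart: ttn.1 was at 11408 normalized counts in treated replicate 1, at 1872 and 1709 in treated replicates 2 and 3, and at 7648 to 9513 in control libraries. Values without treated replicate 1 are therefore given beside the results on each heart muscle gene.

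Of the 9 heart muscle genes, 8 rose in treated larvae and none fell at an adjusted p of 0.05 (limma with Benjamini-Hochberg adjustment over all tested genes), and nkx2.5 did not pass. Among all 20352 tested genes 35.0% were called higher and 34.3% lower, so calls were common in this comparison. On recovered reads edgeR and DESeq2 called the same 8 genes higher, with 36.0% and 35.5% of all genes called higher. The median log2 fold change of the 9 genes was 2.64, against 0.01 for all tested genes. As the set was chosen with earlier results known, no test of it as a set was run. The treated libraries lay above the control libraries without overlap in 7 of the 9 genes and below them in 1, against 37.4% and 36.8% of all tested genes. Without treated replicate 1 the same 8 genes passed. Of these, nppb and gata4 reached the mean set for testing only through their treated libraries. Both also passed with no filter on low values.

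**Figure D1:**
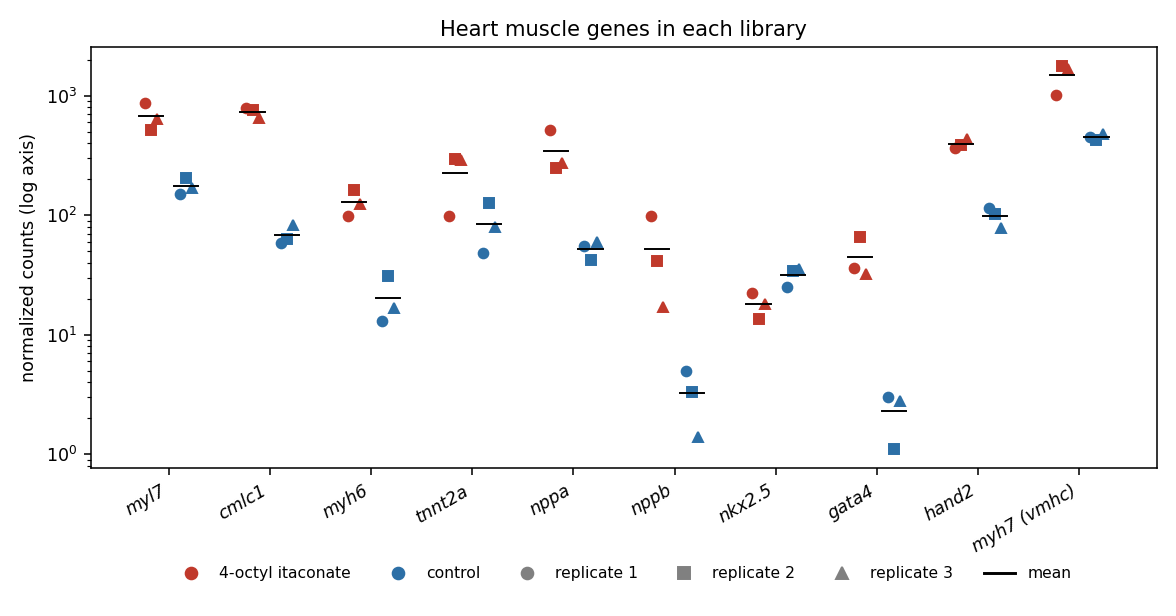
Normalized counts (log axis) of the 9 heart muscle genes and of myh7 (vmhc) in each of the 3 treated and 3 control libraries; marker shapes give the replicate and black lines the group means. Treated libraries lie above control libraries in all but nkx2.5, where they lie below, and tnnt2a, where treated replicate 1 (98.6) lies below control replicate 2 (126).

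Among the contractile genes, those of the myosin light chains rose, with every treated library above every control library. The gene myl7 (ENSDARG00000019096) encodes the regulatory light chain of heart myosin and is the usual marker of heart muscle in zebrafish. It was at 872, 513 and 639 normalized counts in treated replicates 1, 2 and 3, against 151, 207 and 168 in control replicates 1, 2 and 3. The groups did not overlap, and the highest treated library was replicate 1. Its mean was 675 ± 182 in treated and 175 ± 28.4 in control larvae (SD, n = 3 each), a 3.85-fold rise with a log2 fold change of 1.92 (SE 0.23, limma adjusted p = 8.62e-05), and of 1.71 without treated replicate 1. The gene cmlc1 (ENSDARG00000032976), for the other light chain of heart myosin, had 782, 755 and 654 normalized counts in treated replicates, against 58.2, 63.3 and 83.2 in control replicates. Its 3 treated libraries lay close together and far above all controls. It rose 10.7-fold, with a log2 fold change of 3.41 (SE 0.20, limma adjusted p = 2.28e-06; 3.36 without treated replicate 1), and 4.41% of tested genes had a larger log2 fold change.

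The heavy chain genes also rose. Atrial muscle of zebrafish uses the heavy chain encoded by myh6 (ENSDARG00000090637), which was at 98.6, 164 and 124 normalized counts in treated replicates 1, 2 and 3 and at 13.0, 31.1 and 16.9 in control replicates. Every treated library was above every control library, with treated replicate 1 the lowest of its group. The rise was 6.34-fold, with a log2 fold change of 2.67 (SE 0.38, limma adjusted p = 0.000249; 2.84 without treated replicate 1). The row myh7 (vmhc; ENSDARG00000079564), for the ventricular heavy chain, had 1009, 1756 and 1678 normalized counts in treated and 452, 422 and 481 in control replicates. It rose 3.28-fold, with a log2 fold change of 1.67 (SE 0.22, limma adjusted p = 0.000153; 1.93 without treated replicate 1). Counted as the tenth gene it would bring the number that rose to 9. Its paralog myh7l, for which RefSeq lists vmhcl as a synonym, had 175, 303 and 232 normalized counts in treated replicates and 151, 261 and 200 in control replicates. Those groups overlapped, and limma did not call the difference (log2 fold change 0.21, SE 0.27, adjusted p = 0.506). How reads shared between these related genes were divided is not stated in the labels.

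The gene tnnt2a (ENSDARG00000020610) encodes cardiac troponin T, which anchors the troponin complex and without which the zebrafish heart does not beat. It was at 98.6, 295 and 289 normalized counts in treated replicates 1, 2 and 3, against 48.1, 126 and 80.3 in control replicates. Treated replicate 1 lay within the control range and the other treated libraries lay above it. The log2 fold change was 1.36 (SE 0.48, 2.69-fold, limma adjusted p = 0.0306). Leaving out treated replicate 1 gave 1.88 (limma adjusted p = 0.000714). The limma test was not passed without treated replicate 2 (1.09, adjusted p = 0.104), treated replicate 3 (1.11, adjusted p = 0.108), control replicate 1 (1.01, adjusted p = 0.114) or control replicate 3 (1.37, adjusted p = 0.0683).

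Both natriuretic peptide genes rose, and both were highest in treated replicate 1. The atrial peptide gene nppa (ENSDARG00000052960) was at 519, 247 and 272 normalized counts in treated replicates 1, 2 and 3, against 55.1, 42.2 and 59.2 in control replicates. The groups did not overlap. The rise was 6.63-fold, with a log2 fold change of 2.64 (SE 0.31, limma adjusted p = 7.96e-05; 2.31 without treated replicate 1). The B-type peptide gene nppb (ENSDARG00000052958) was at 98.6, 41.6 and 17.2 normalized counts in treated replicates and at 5.01, 3.33 and 1.41 in control replicates. Treated libraries spanned 5.74-fold among themselves, the widest range of the 9 genes, yet all were above all controls. Its log2 fold change was 3.42 (SE 0.69, limma adjusted p = 0.002). With a control mean of 3.25, nppb reached the mean set for testing only through its treated libraries (mean 52.5). With no filter on low values it also passed (limma adjusted p = 0.00188). The 16.1-fold ratio of group means became 9.04-fold without treated replicate 1, where the log2 fold change was 2.81 (limma adjusted p = 0.00484); without treated replicate 3 it was 4.04. The controls held 9 reads of nppb in all and the treated libraries 143, and the ratio of pooled levels was 14.6 with an exact 95% interval of 7.50 to 32.7, which covers counting error only.

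Of the 3 transcription factor genes, gata4 and hand2 rose and nkx2.5 did not pass. The zinc finger gene gata4 (ENSDARG00000098952), which also acts in liver and gut, was at 35.9, 66.4 and 32.5 normalized counts in treated replicates 1, 2 and 3, against 3.01, 1.11 and 2.82 in control replicates. It was close to the limit of detection in controls, with 6 reads over the group against 125 in treated libraries, a ratio of pooled levels of 19.2 with an exact 95% interval of 8.58 to 53.3. Its log2 fold change of 3.78 (SE 0.53, limma adjusted p = 0.000235) was exceeded by 3.08% of tested genes. Without treated replicate 1 it was 3.90, and with a pseudocount of 5 it was 2.72. With a control mean of 2.31, gata4 reached the mean set for testing only through its treated libraries (mean 44.9). Genes as low in controls that did not rise were left out, so its rank holds among tested genes only. With no filter on low values gata4 also passed (limma adjusted p = 0.000184). The gene hand2 (ENSDARG00000008305) encodes a helix-loop-helix factor of the heart that is also used in pharyngeal arches, pectoral fins and enteric neurons. It was at 367, 384 and 436 normalized counts in treated and 114, 102 and 78.9 in control replicates. The groups were tight and far apart, and hand2 rose 4.02-fold, by 2.01 on the log2 scale (SE 0.20, limma adjusted p = 3.39e-05) or by 2.06 without treated replicate 1.

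The homeobox gene nkx2.5 (ENSDARG00000018004), an early marker of heart precursors, had lower values in treated larvae. It was at 22.4, 13.5 and 18.1 normalized counts in treated replicates 1, 2 and 3, against 25.1, 34.4 and 35.2 in control replicates. The groups did not overlap, but the gene was low, with 51 reads over the treated and 81 over the control libraries. The ratio of pooled levels, treated over control, was 0.58 with an exact 95% interval of 0.40 to 0.83, which covers counting error only. With a log2 fold change of -0.79 (SE 0.37), limma did not call nkx2.5 (adjusted p = 0.0863), and the 95% interval ran from -1.63 to 0.06. Without treated replicate 1 the log2 fold change was -0.95 (limma adjusted p = 0.0578). It passed after quantile normalization (-1.18, adjusted p = 0.0187) and in limma without the intensity trend (adjusted p = 0.0276), and it did not pass by edgeR (adjusted p = 0.115) or DESeq2 (adjusted p = 0.144) on recovered reads.

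**Figure D2:**
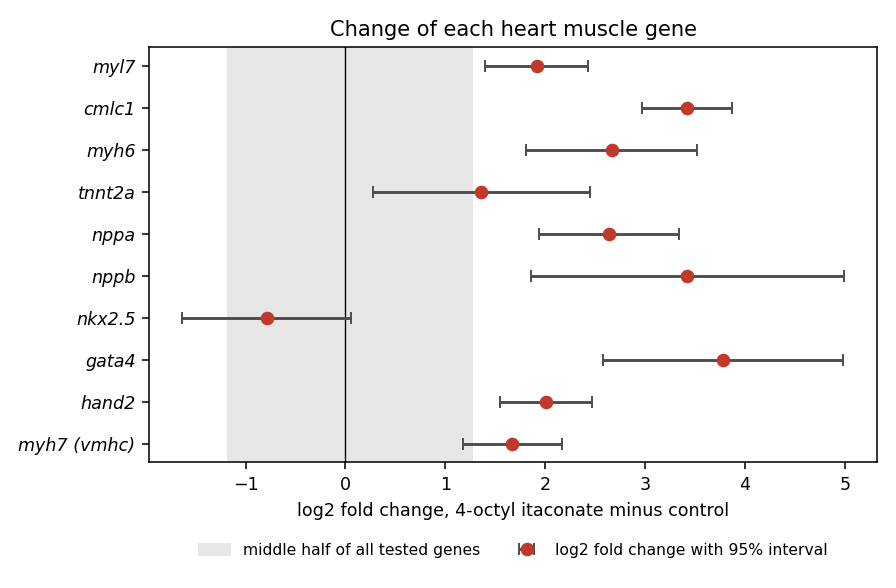
Log2 fold change of each heart muscle gene and of myh7 (vmhc), 4-octyl itaconate minus control, with its 95% interval from limma; the grey band spans the quartiles of all tested genes (-1.17 to 1.27). The estimates of 8 heart muscle genes lie above the band, between 1.36 (tnnt2a) and 3.78 (gata4), whereas nkx2.5 lies inside it at -0.79.

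How the heart muscle genes stood relative to each other was read from ratios of genes within a library, which do not depend on the scaling between libraries. They were taken from recovered reads with no pseudocount. How often ratios of other gene pairs lie without overlap was not counted. Among single tested genes, 37.4% lay higher and 36.8% lower in treated libraries without overlap. For 10 ratios an exact two-sided permutation test over the 6 libraries was used; with 3 libraries against 3 it cannot give a p below 0.1, which is 0.2 after adjustment over the ratios. The log2 ratio of nkx2.5 to myl7 was -5.22 ± 0.08 in treated and -2.48 ± 0.20 in control larvae (SD, n = 3 each), a difference of -2.75 with SE 0.12. The groups were far apart (exact permutation p = 0.1, adjusted 0.2). The log2 ratio of cmlc1 to myl7 was 0.14 ± 0.37 in treated and -1.37 ± 0.35 in control larvae, also without overlap (difference 1.51, SE 0.29, exact p = 0.1, adjusted 0.2).

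Ratios without overlap were also found for the hormone nppa and for the chamber myosins. The log2 ratio of nppa to myl7 was -1.01 ± 0.24 in treated and -1.75 ± 0.47 in control larvae (difference 0.74, SE 0.31). That of gata4 to myl7 was -3.95 ± 0.88 in treated and -6.36 ± 1.03 in control larvae (difference 2.41, SE 0.78). The difference was 1.82 without control replicate 2, which held a single gata4 read, and 0.83 with a pseudocount of 5. Reads of gata4 from heart, liver and gut were not told apart. The ratio of the ventricular to the atrial heavy chain, myh7 (vmhc) to myh6, was 3.51 ± 0.22 in treated and 4.57 ± 0.71 in control larvae (difference -1.06, SE 0.43), and treated replicate 3 at 3.757 lay just below control replicate 2 at 3.763. Each of these 3 ratios had an exact permutation p of 0.1, adjusted 0.2. The ratio of the heavy chains rests on 13, 28 and 12 reads of myh6 in control replicates 1, 2 and 3. The myh7 row also carries the synonym smyhc3, and reads from muscle outside the heart were not told apart.

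In 5 ratios the groups overlapped. The log2 ratio of nppb to myl7 differed by 1.93 (SE 0.85, exact p = 0.2), and with 1 library left out by 1.44 (without control replicate 3) to 2.54 (without treated replicate 3). That of nppb to nppa differed by 1.19 (SE 0.79, exact p = 0.3), and by 0.58 without control replicate 3. For the other 3 ratios the sign of the difference changed with the library left out. The ratio of tnnt2a to myl7 differed by -0.55 (SE 0.78, exact p = 0.6), and by 0.17 without treated replicate 1, which was the lowest library at -3.14 against -0.80 and -1.14 in treated replicates 2 and 3. The ratio of hand2 to myl7 differed by 0.10 (SE 0.34, exact p = 1), with a range of -0.06 to 0.35 when 1 library was left out. The ratio of myl7 to mylpfa, a counterpart light chain of fast skeletal muscle, was -8.70 ± 0.57 in treated and -8.76 ± 0.34 in control larvae (difference 0.06, SE 0.38, exact p = 0.8). With 1 library left out its difference ranged from -0.27 (without treated replicate 1) to 0.25 (without control replicate 2). This holds for mylpfa only. Its paralog mylpfb, picked after its values were seen, rose more (log2 fold change 3.49, against 1.86), and no ratio was taken to it.

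**Figure D3:**
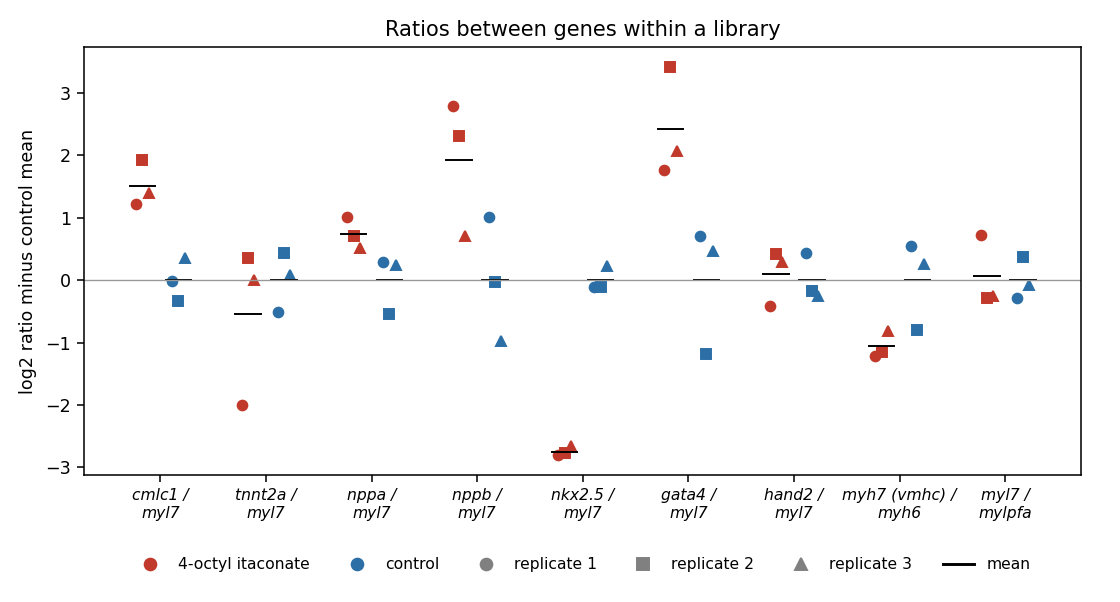
Log2 ratios between 2 genes of the same library, shown as the difference from the mean of the 3 control libraries; marker shapes give the replicate and black lines the group means. The group means differ by -2.75 for nkx2.5 over myl7 and by 1.51 for cmlc1 over myl7, without overlap, while the groups overlap for hand2, nppb and tnnt2a over myl7 and for myl7 over mylpfa.

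Most other contractile genes of the heart rose. In a list of other sarcomere, Z-disc and myofibril genes, 33 of 40 tested gene IDs rose, 1 fell and 6 did not pass, with a median log2 fold change of 2.36. Among all tested genes 35.0% were called higher and 34.3% lower. Without treated replicate 1 the number that fell was 3, and without treated replicate 3 it was 2. Picked after their values were seen, the titin genes ttn.1 and ttn.2 did not pass. Their log2 fold changes were -1.41 and -0.62 (limma adjusted p = 0.0688 and 0.299). In both, treated replicates 2 and 3 lay below all control libraries and treated replicate 1 lay above them. Many genes of this list are also expressed in skeletal muscle, whose markers rose in the same larvae. Those with the smallest p were ldb3b, for a Z-disc protein, myom1b, for the M-band protein myomesin, tnnc1b, a troponin C gene, and the actin gene actc1c, which rose by factors of 11.0, 39.9, 14.6 and 65.8 (limma, adjusted p between 6.3e-07 and 9.96e-07). The 1 gene ID that fell was ENSDARG00000076126, named actc1a, at 1.87 ± 3.25 in treated and 397 ± 95.6 normalized counts in control larvae. A different gene ID with the name actc1a rose 27.6-fold. Whether the assignment of reads to these IDs had a part in the fall was not tested. The fall is therefore given for this gene ID only, and not for actc1a as a gene. The following were picked after their values were seen, for their use as heart genes: mybpc3, for cardiac myosin binding protein C, was at 2954 ± 428 in treated and 474 ± 48.1 in control larvae. The troponin I gene tnni1b was at 370 ± 31.5 in treated and 69.7 ± 17.7 in control larvae, and the troponin C gene tnnc1a at 91.4 ± 16.1 in treated and 21.1 ± 11.2 in control larvae (SD, n = 3 each). All 3 rose (limma adjusted p of 2.56e-06, 2.79e-05 and 0.00207). Likewise picked, nexn, myh7bb and actn2b did not pass. Their log2 fold changes were -0.45, -0.09 and 0.74 (limma adjusted p = 0.0729, 0.755 and 0.104), and every treated library of nexn lay below every control library.

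Of 28 other tested transcription factor genes of heart development, 11 rose, 13 fell and 4 did not pass (median log2 fold change 0.16, above 0 although more genes fell than rose). Among all tested genes 35.0% were called higher and 34.3% lower. The share that rose lies near the former, and the share that fell lies above the latter. No test of this list was run, and reads of these genes from the heart and from other tissues were not told apart. The 4 genes with the smallest p all fell: the nuclear receptor genes nr2f2 and nr2f1a, of which nr2f1a maintains atrial identity in zebrafish and both also act in the nervous system, by 3.02 and 2.45 on the log2 scale, the Gata cofactor gene zfpm2b by 3.34 and the chromatin remodelling gene smarcd3b by 1.94 (limma adjusted p of 1.28e-06 to 4.37e-06). Among those that rose, srfb, a serum response factor gene, had a log2 fold change of 3.17 (SE 0.88, limma adjusted p = 0.0107), 2.05 without control replicate 2, in which it was at 0, and 3.90 without control replicate 1. With a control mean of 6.36, srfb reached the mean set for testing only through its treated libraries (mean 42.2). Picked after their values were seen, the paralogs of gata4 rose with it: gata5 was at 336 ± 86.2 in treated and 82.0 ± 25.5 in control larvae, and gata6 at 432 ± 115 in treated and 59.7 ± 24.0 in control larvae (limma adjusted p = 0.000211 and 5.13e-05). Of the relatives of nkx2.5, also picked after their values were seen, nkx2.7 was at 17.2 ± 3.48 in treated and 7.87 ± 6.48 in control larvae and did not pass (limma adjusted p = 0.116), while nkx2.3, at 138 ± 26.9 in treated and 29.0 ± 13.5 in control larvae, rose (limma adjusted p = 0.000468).

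Other genes of the natriuretic peptide system included some that fell. RefSeq orders the genes nppal, nppb and nppa next to each other, and the values of the neighbour nppal went the opposite way. It was at 72.9, 57.4 and 44.9 normalized counts in treated replicates, against 135, 152 and 162 in control replicates, without overlap, and fell by 1.37 on the log2 scale (limma adjusted p = 0.00116). The C-type peptide gene nppc also fell, by 1.85 (limma adjusted p = 0.00214). Of 12 tested genes of peptide processing, receptors and related peptides, 5 rose, 3 fell and 4 did not pass. Among all tested genes 35.0% were called higher and 34.3% lower, and no test of this small list was run. Furin cuts propeptides of this family, and its 2 genes diverged, furina with a log2 fold change of 0.95 (limma adjusted p = 0.00108) and furinb with -1.44 (limma adjusted p = 0.000699). The gene prkg1b, for the kinase that responds to cyclic GMP, the messenger made by the receptors, rose 6.12-fold (limma adjusted p = 4.77e-05). Receptor genes, picked after their values were seen, did not pass in 3 of 4 cases: npr1a, npr1b and npr3 stood at log2 fold changes of 0.40, -0.26 and -0.32, while npr2 rose 1.74-fold (limma adjusted p = 0.00512).

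Of 28 tested calcium store and ion channel genes, 11 rose, 9 fell and 8 did not pass (median -0.20), near the shares of all tested genes (35.0% higher and 34.3% lower). Genes of the calcium store and its membrane contacts were those with the smallest p: the calsequestrin gene casq2 rose 8.58-fold, 1 of the gene IDs named hrc, for a calcium-binding store protein, 7.53-fold, and the junction gene jph2 9.21-fold. The mitochondrial channel gene vdac2 rose 4.22-fold (limma adjusted p of 1.28e-06 to 3.99e-06 for the 4 genes). Among those that fell was kcnj3b, a potassium channel gene also used in the nervous system, by 2.87 on the log2 scale (limma adjusted p = 3.51e-05). Picked after their values were seen, the calcium pump gene atp2a2a and its inhibitor gene pln rose 9.05-fold and 6.68-fold (limma adjusted p = 6.45e-06 and 9.23e-05). The paralog atp2a2b, at 1632 normalized counts in control larvae against 136 for atp2a2a, did not pass (log2 fold change -0.41, limma adjusted p = 0.19). Likewise picked, ryr2b did not pass (0.01). The calcium channel subunit genes cacna1c, cacnb2a and cacnb2b fell (-1.54, -0.70 and -1.79, limma adjusted p = 0.000679, 0.0193 and 0.00884). Store genes of the skeletal muscle list, also picked after their values were seen, rose: casq1a 4.25-fold, atp2a1 12.8-fold and ryr1b 4.83-fold. Reads from heart and from skeletal muscle were not told apart.

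Most genes listed for the other layers of the heart rose as well. RNA of many tissues was measured together, so these counts do not show that those layers changed. For this list and the next, the shares among all tested genes were 35.0% higher and 34.3% lower. In the endothelial, endocardial and valve list 14 of 20 tested rose, 4 fell and 2 did not pass (median 1.13), and 2 fell without treated replicate 3, control replicate 1 or control replicate 3. The genes bmper, twist1b, hapln1a and kdrl rose by log2 fold changes of 2.42, 1.86, 1.25 and 1.21 (limma adjusted p of 4.27e-05 to 0.00014). Picked after their values were seen, cdh5, crip2 and dll4 fell by 0.55, 0.56 and 0.76 on the log2 scale (limma adjusted p = 0.0253, 0.00674 and 0.0148). In each of them every treated library lay below every control library. The matrix gene vcana was at 2.56 ± 3.64 in treated and 28.2 ± 34.2 in control larvae, with 67.7 in control replicate 3 alone. Its log2 fold change of -2.89 (limma adjusted p = 0.0325) became -3.71 without treated replicate 1, and it was not past the threshold without treated replicate 2 (-2.24, adjusted p = 0.0954), treated replicate 3 (-2.72, adjusted p = 0.0803) or control replicate 3 (-1.93, adjusted p = 0.144). In the list of epicardium and outflow tract smooth muscle, 15 of 17 tested rose, none fell and 2 did not pass (median 2.35). The smooth muscle genes acta2, tagln and myh11a and the elastin gene elnb, for a matrix protein of the outflow tract wall, rose by factors of 11.2, 7.78, 7.91 and 9.72 (limma, adjusted p between 3.82e-06 and 1.62e-05). Smooth muscle of gut and vessels also expresses acta2, tagln and myh11a.

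**Figure D4:**
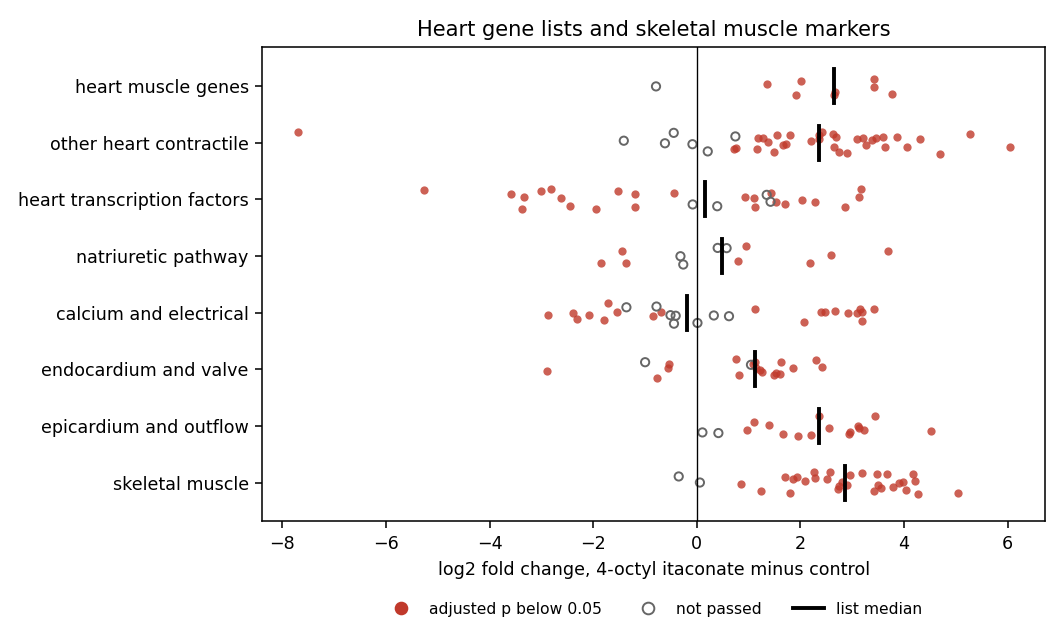
Log2 fold changes (4-octyl itaconate minus control) of each tested gene in the heart gene lists and in the skeletal muscle markers; filled points passed an adjusted p of 0.05 and black bars are list medians. The medians of the heart muscle genes (2.64), other contractile genes (2.36) and epicardium and outflow genes (2.35) lie near that of skeletal muscle (2.85), while transcription factors (0.16) and calcium and electrical genes (-0.20) spread to both sides of 0.

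In sum the 9 heart muscle genes took a small part of each library. Per 1000000 recovered reads (RPM), they made up 131, 122 and 111 reads in treated replicates 1, 2 and 3, against 22.4, 33.2 and 25.3 in control replicates, a ratio of means of 4.50. Mitochondrially encoded genes took 5.21% ± 0.43 of all reads in treated libraries, against 25.1% ± 3.34 in control libraries, and with these genes left out of the total the ratio was 3.57. Skeletal muscle markers summed to 133032 to 144404 RPM in treated and 20114 to 20649 in control libraries, a ratio of 6.70. Of these markers 30 of 32 rose, against 35.0% of all tested genes. The fast myosin gene myhz2, the slow myosin gene smyhc1 and the fast troponin T gene tnnt3b rose 17.7-fold, 18.4-fold and 9.05-fold. The light chain gene mylpfa rose 3.67-fold and its paralog mylpfb 11.3-fold, against 3.85-fold for myl7.

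Markers of other tissues moved in the same libraries, where 35.0% of all tested genes were called higher and 34.3% lower. Liver markers summed to 17548 to 17992 RPM in treated and 418 to 562 in control libraries, and all 14 rose, with the apolipoprotein gene apoa2 the most abundant (115-fold). Of 15 intestine and pancreas markers 14 rose, with summed values of 6051 to 9440 in treated and 147 to 208 in control libraries and the protease gene ctrb1 the most abundant (399-fold). Blood markers, among which the globin gene hbbe1.1 rose 9.66-fold, rose in 8 of 10 cases, and 1 fell. They summed to 1989 to 4839 RPM in treated and 412 to 503 in control libraries, highest in treated replicate 1. Of the 9 heart muscle genes, that library was the highest treated library for 5, nkx2.5 among them, and the lowest for 3. Neuron and glia markers fell in 12 of 13 cases, stmn1b by 2.71 on the log2 scale, and summed to 548 to 871 in treated and 5388 to 6030 in control libraries. All 13 mitochondrially encoded genes fell, mt-co1 by 2.44. The part of these shifts in the values of heart muscle genes was not tested.

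**Figure D5:**
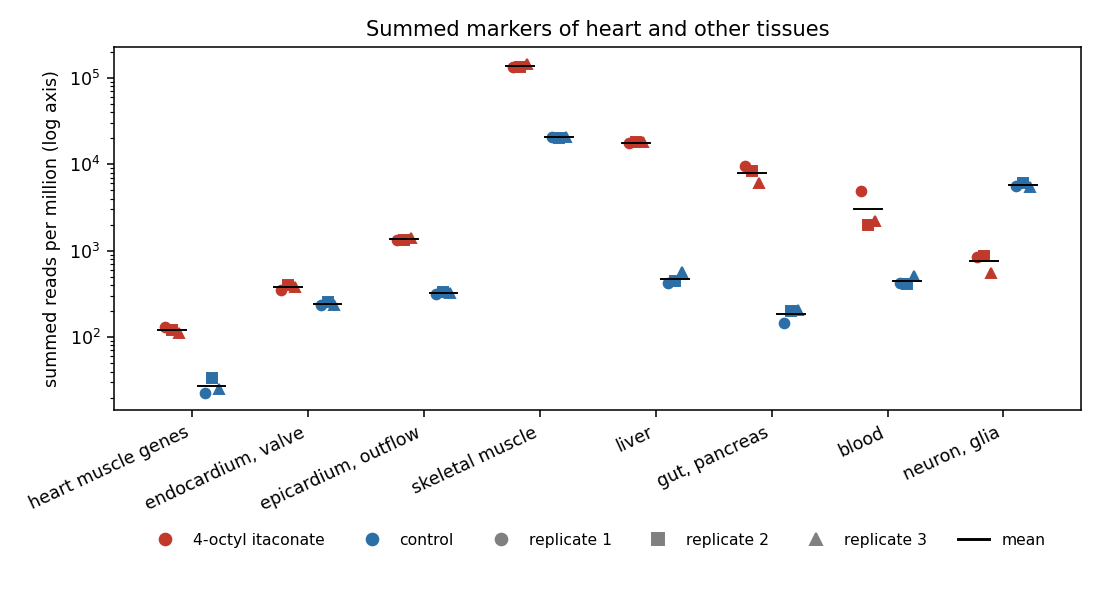
Summed RPM (log axis) of the heart muscle genes and of marker lists of other heart layers and tissues in each library; marker shapes give the replicate and black lines the group means. Heart muscle genes sum to 111 to 131 in treated and 22.4 to 33.2 in control libraries; of the 8 lists drawn, all but neuron and glia are higher in treated libraries.

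The genes whose profile over the 6 libraries was most like that of myl7 were found from the root mean square distance between log2 values, each gene centred on its control mean. The 5 nearest named genes were neu1, CABZ01026681.1, twist1b, zgc:101569 and lrrc8c, at distances of 0.09, 0.11, 0.12, 0.13 and 0.13. They rose 3.70-fold to 4.08-fold, against 3.85-fold for myl7, and in each of them treated replicate 1 was the highest treated library, as in myl7. Both likenesses follow from choosing the genes by distance over these same 6 libraries, so they are not a separate result.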

How the data were processed

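RNA captured on mRNA beads was measured in 6 libraries of larvae, per the labels. The deposited signal values were normalized counts, made by the authors from gene counts with a single factor for each library. The submitters' processing notes list the build GRCz11, DESeq2 without a version, Salmon 1.9.0, STAR 2.7.10a, fastp 0.23.2 and bcl2fastq 2.20.0.422, with no role, order or filter stated. Whole reads were recovered by dividing by each library's smallest step (100% of values within 0.01 of a whole number).

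A gene was tested where its mean reached 10 normalized counts (20352; 4118 were left out) with a pseudocount of 1 on the log2 scale, by two-sided limma 3.58.1 tests with intensity trend and no covariate (R 4.3.3) and Benjamini-Hochberg adjustment at 0.05. A log2 fold change is treated minus control after adding the pseudocount, so low genes' changes are understated; folds are ratios of group means. Genes low in either group could reach the mean set for testing through the other group alone. The counts called in the lists include such genes. Alternatives are in the closing section and include edgeR 4.0.16 and DESeq2 1.42.0 on recovered reads. The fits were also run on simulated counts in which few genes changed. Calls were far more common in these data, so that run cannot show how the fits fare here.

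The members and the 12 other lists (269 names) were chosen with earlier results of these data known. Named genes were all members and, in each of 6 heart lists, the 4 with the smallest p and the largest change in the less common direction. Skeletal counterparts and the most abundant marker of each other tissue were added. Gene names came from the table, and synonyms and gene order from RefSeq (assembly GRCz12tu), where all 9 members and myh7 matched by Entrez number; no coordinates or sequences were used. Plots used matplotlib 3.10.9 under Python 3.11.15.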

Additional observations from a re-analysis of the deposited data

How the results depend on the processing

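The 8 heart muscle genes that rose kept a positive log2 fold change under all 20 alternatives that tested them; 7 of them, and myh7 (vmhc), also stayed past the threshold in each. With a filter at a mean of 50 normalized counts nppb, gata4 and nkx2.5 were not tested and 6 genes rose; edgeR and DESeq2 called the same 8. The log2 fold change of tnnt2a did not pass after quantile normalization (1.26) or without the intensity trend (1.36), and lay between 1.01 and 1.88 with 1 library left out. That of nkx2.5 passed in these 2 settings (-1.18 and -0.79), so that 1 heart muscle gene then fell; it was negative under all alternatives run (-1.18 to -0.48). Upper-quartile scaling shifted the median log2 fold change of all tested genes to 0.33, against 0.01; the other scalings moved it by about 0.1 or less. The share of calls that were higher was 59.9% with it and 50.5% without. With pseudocount 5 the differences of the log2 ratios of nppb to myl7, nppb to nppa and gata4 to myl7 were 0.66, -0.0015 and 0.83. Contractile genes called lower numbered 3 scaled to RPM and with arrayWeights, 2 after quantile normalization and with the replicate block, and 1 to 3 with 1 library left out. Endocardial and valve genes called lower numbered 1 with upper-quartile scaling, 2 after quantile normalization and 2 to 4 with 1 library left out. Deviations of same-numbered libraries from their group means correlated at -0.0212, -0.0574 and 0.0497. Of the 3 treated libraries, 1 correlated best with the control of its own number. With 3 libraries in each group, these values cannot show whether replicate numbers pair the samples. A fit with the replicate block called 13679 genes in all, against 14098, and changed no call of a heart muscle gene. In that fit the SE of tnnt2a was 0.26, against 0.48 without the block (limma adjusted p = 0.00259 with it). The SE of gata4 was 0.62 with the block, against 0.53. The cause of these changes was not tested. Low counts limit nkx2.5, nppb and gata4, and also myh6 in control libraries.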
